A study of Mus musculus with 22 samples.

Results

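IGHV3-6 is a variable (V) segment of the mouse immunoglobulin heavy-chain locus, and its rearrangements were described here in B cells sorted from the kidney. The segment was chosen by its usage rank, its pooled number of sequences, and its members were all sequences whose first V gene name was IGHV3-6 with the allele left off. There were 1271 such sequences among 17178 in all, or 7.40%, carried by 7569 of 123192 reads. All 1271 had the same allele name and 0 had an ambiguous V name, against 571 ambiguous names in the whole series.

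A B cell makes its heavy chain by joining a V, a diversity (D) and a joining (J) segment, and nucleotides can be trimmed or inserted at both joints. The joined stretch, the third complementarity-determining region (CDR3), lies at the centre of the antigen-binding site, while the V segment supplies the first and second such loops and the framework. B-1a cells, which seed tissues early in life, are known for rearrangements of IGHV11-2 and IGHV12-3 that bind phosphatidylcholine and for joints with few inserted nucleotides.

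The mice were wild-type C57BL/6 females of 8 to 10 weeks. The bladder of 5 mice received uropathogenic Escherichia coli (UPEC) and that of 6 mice received phosphate-buffered saline (PBS), and kidneys were taken on day 56. An antibody given into the circulation before death marked the intravascular B cells, and the unmarked, extravascular B cells were sorted separately, which gave 22 libraries in 11 mouse pairs. The tables held heavy-chain sequences alone, so the identity of the sorted cells was not checked against marker genes here, and a share of sequences cannot tell more cells from more transcript per cell. Extravascular libraries held a median of 890 and up to 2134 sequences, and intravascular ones 344 to 938. The smallest library, extravascular from UPEC mouse 1, held 936 reads.

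The Ighv3-6 gene (ENSMUSG00000076672.7) lies at chr12:114288152-114288582 on the minus strand of GRCm38, between Ighv3-5 and Ighv3-8 among the annotated members of its family described here. Its V exon spans chr12:114288152-114288458 and the V region proper chr12:114288152-114288447. The V region of 296 nucleotides, read from the GRCm38 sequence, is shown because it is the germline segment to which all 1271 rearrangements were assigned. The 11 capitals, from position 286, lie in the part that can enter the junction, and positions were counted from 1 at the first base of the V region.

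IGHV3-6 V region: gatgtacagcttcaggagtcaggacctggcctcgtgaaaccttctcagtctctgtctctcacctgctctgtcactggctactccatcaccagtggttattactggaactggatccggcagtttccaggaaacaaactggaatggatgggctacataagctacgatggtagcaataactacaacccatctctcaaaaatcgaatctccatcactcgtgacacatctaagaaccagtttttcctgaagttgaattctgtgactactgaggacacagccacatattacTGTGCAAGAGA

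The nearest relatives in sequence were IGHV3-1, with 93.2% identity over 296 aligned nucleotides, and IGHV3-8, with 89.4% over 293. IGHV3-4 had 87.2% identity, and IGHV3-3 and IGHV3-5 each had 85.1%. The most common start among the sequences was position 20 of the V region. The 48 of the 1271 sequences with fewer than 100 V nucleotides had the least evidence for their name.

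By sequences IGHV3-6 ranked 4 of 80 V segments, below IGHV12-3 with 3216 sequences and above IGHV3-3 with 699. The leading segments, IGHV3-8 and IGHV3-1, had 3661 and 3434. A clonotype was a set of sequences with the same junction nucleotides, V and J segment, and was counted in each library that held it. By clonotypes IGHV3-6 ranked 3, with 815 of 6754, or 12.1%, while IGHV12-3 with 553 clonotypes ranked 4. These ranks are what chose the segment and are given as a description.

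The share of IGHV3-6 varied most in the extravascular libraries. In PBS mice 1 to 6 it was 0.890%, 14.5%, 4.68%, 3.03%, 8.80% and 3.05% of extravascular sequences. The intravascular libraries of the same mice gave 10.5%, 10.5%, 11.4%, 10.3%, 11.05% and 5.56%. In 5 of 6 PBS mice the extravascular share was the lower, and the extravascular range enclosed the intravascular range. In UPEC mice 1 to 5 the extravascular shares were 2.46%, 8.89%, 6.35%, 12.4% and 8.42%. Their intravascular shares were 9.47%, 6.34%, 13.6%, 9.28% and 9.28%. The extravascular share was lower in 3 of 5 UPEC mice.

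**Figure D1:**
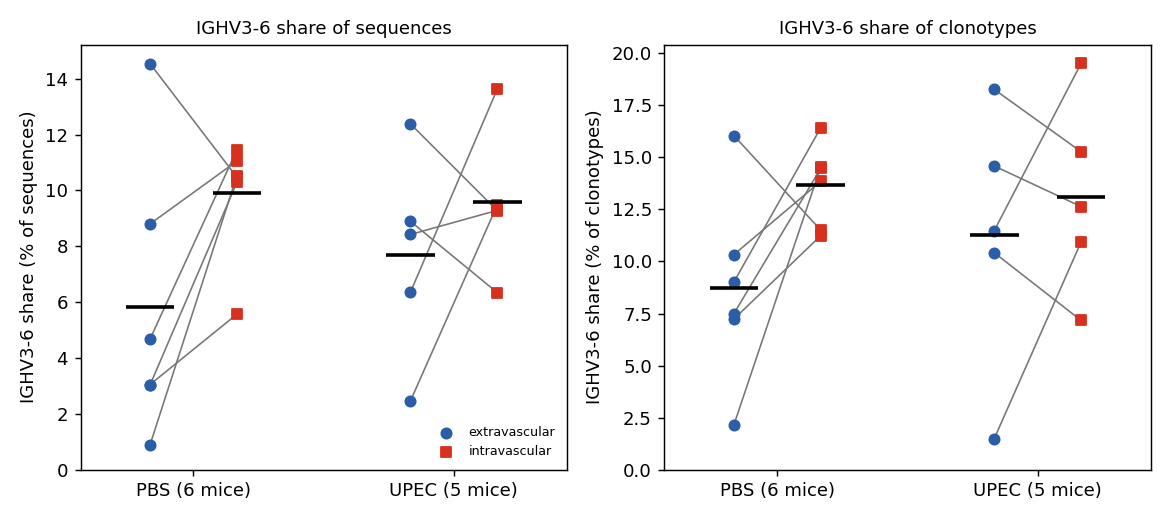
IGHV3-6 share of sequences (left) and of clonotypes (right), in percent of each library, for PBS and UPEC mice. Circles are extravascular and squares intravascular libraries, lines join the libraries of a mouse, and bars are group means; the extravascular shares of sequences spread from 0.890% to 14.5% and the intravascular shares from 5.56% to 13.6%.

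None of these differences passed its test. The mean extravascular minus intravascular difference was -4.06 ± 4.90 percentage points in PBS mice (SD, n = 6; exact two-sided signed-rank test, p = 0.156, adjusted p = 0.284 over 26 tests). It was -1.90 ± 5.02 points in UPEC mice (n = 5; exact p = 0.625, where 0.0625 is the smallest 5 pairs allow). Over all 11 mice it was -3.08 ± 4.84 points with 8 of 11 mice below 0 (exact signed-rank p = 0.123, adjusted p = 0.246). The extravascular mean was 7.70 ± 3.65% in UPEC and 5.83 ± 5.02% in PBS mice (exact two-sided Mann-Whitney test, p = 0.537, n = 5 and 6). The intravascular means were 9.60 ± 2.60% and 9.89 ± 2.16% (exact Mann-Whitney p = 0.429, n = 5 and 6). The change of the compartment difference with UPEC was 2.16 points (exact Mann-Whitney p = 0.662, n = 5 and 6). With 1-nucleotide variants of a clonotype merged, the extravascular UPEC minus PBS difference was 0.641 instead of 1.87 points and the change with UPEC to 1.09. With at least 3 reads per sequence the UPEC compartment difference was -0.782 points. Among sequences with at least 200 V nucleotides, the compartment difference of all 11 mice had an unadjusted signed-rank p under 0.05.

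When each V segment was tested for its log2 share with limma, IGHV3-6 was not called in any of 4 comparisons. In PBS mice its log2 fold change, extravascular over intravascular, was -1.20 (SE 0.64, limma adjusted p = 0.147), where 35.3% of the 17 segments tested, or 6, were called. That count was 0 without any of PBS mice 1 to 5, without a filter or over reads, and 3 with median centring. Over all mice it was -0.86 (SE 0.46, limma adjusted p = 0.156), where 33.3% of 18 segments were called. After centring each library on the median segment these 2 values were -0.06 and -0.12, so that IGHV3-6 moved about as the median segment did. UPEC over PBS gave 0.71 extravascularly (SE 0.87, limma adjusted p = 0.689) and -0.05 intravascularly (SE 0.28, limma adjusted p = 0.873). With median centring the extravascular value was -0.0503. In these UPEC over PBS comparisons 0% of 17 and 0% of 14 segments were called by limma, and 1 segment in each had an unadjusted p under 0.05.

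The share depended on what was counted. Over reads instead of sequences the mean compartment difference of all 11 mice was 0.473 points, with the opposite sign (6.61% against 6.13%; exact signed-rank p = 0.898). The extravascular mean over sequences was 6.68% and the intravascular mean 9.76%, so the intravascular share was the one that moved. With the largest IGHV3-6 clonotype of each library left out it was -4.65 points, and -5.70 points in PBS mice. That clonotype held 23 sequences on average extravascularly and 2.64 intravascularly, so leaving it out lowers the extravascular share by construction, and no test of it is given. Counted by clonotypes, the extravascular shares were 2.15%, 16.04%, 9.01%, 7.5%, 10.3% and 7.24% in PBS mice and 1.49%, 10.4%, 11.5%, 18.3% and 14.6% in UPEC mice. The intravascular shares of clonotypes were 14.5%, 11.5%, 16.4%, 14.5%, 13.8% and 11.2% in PBS mice and 10.9%, 7.17%, 19.5%, 15.3% and 12.6% in UPEC mice. The mean difference was -3.55 ± 5.87 points, with 7 of 11 mice below 0 (exact signed-rank p = 0.0674, adjusted p = 0.146). At an equal number of sequences it was -2.18 points (exact signed-rank p = 0.278), and without the pairs of PBS mouse 1 and UPEC mouse 1 it was -1.91 points. The mean extravascular share of clonotypes was 11.2% in UPEC and 8.71% in PBS mice (difference 2.53 points; exact Mann-Whitney p = 0.329, n = 5 and 6). With 1 mouse left out this difference ranged from 0.780 without UPEC mouse 4 to 4.97 without UPEC mouse 1, and at an equal number of sequences it was 1.501.

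The lowest shares of all came from mouse 1 of each treatment. In the PBS extravascular library 1, 19 of 2134 sequences were IGHV3-6 (Wilson 95% interval 0.571% to 1.39%, counting error only), while IGHV12-3 took 39.3% of that library. In the UPEC extravascular library 1 only 6 sequences in 3 clonotypes were IGHV3-6 (interval 1.13% to 5.26%). Values of these 2 libraries for joints and partners therefore rest on 7 and 3 clonotypes.

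Over the 22 libraries, the V segments whose share ran most like that of IGHV3-6 among the 7 compared were IGHV1S22 (Spearman's rho 0.556), IGHV3-8 (0.360) and IGHV5-17 (0.334). IGHV11-2 ran most opposite, at -0.456, and IGHV12-3 was at -0.339. Shares of a library add up to a whole, compartments differ in them, and these values are a description over libraries of 11 mice.

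Clonotypes were larger outside the vessels, those of IGHV3-6 in every mouse and those of the other V segments in 10 of 11. In the extravascular libraries those of the other V segments held 3.69 ± 1.42 sequences on average, against 1.597 ± 0.456 intravascularly, a difference of 2.09 ± 1.48 (n = 11; exact signed-rank p = 0.00293, unadjusted). The difference of IGHV3-6, given next, less that of the other V segments was -0.939 ± 1.20, with 9 of 11 mice below 0 (exact signed-rank p = 0.0186, unadjusted). In the extravascular libraries IGHV3-6 clonotypes held on average 2.71, 3.45, 2.50, 1.29, 2.64 and 1.59 sequences in PBS mice 1 to 6 and 2.00, 3.05, 2.26, 1.42 and 1.71 in UPEC mice 1 to 5. The intravascular means lay between 1.02 and 1.13 in PBS mice and between 1.00 and 1.403 in UPEC mice. The extravascular value was the higher in 11 of 11 mice, by 1.15 ± 0.743 sequences per clonotype (2.24 against 1.09; exact signed-rank p = 0.000977, the smallest that 11 pairs allow; adjusted p = 0.0127). The gap was smallest in UPEC mouse 4, whose libraries gave 1.415 and 1.403. At an equal number of sequences, that of the smallest library, the expected difference was 0.556 (exact signed-rank p = 0.000977), with reads per library left unequal. With sequences 1 nucleotide from a better-read sequence of the same clonotype merged into it, the difference was 0.648 (exact signed-rank p = 0.00195).

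IGHV3-6 clonotypes were smaller than those of the other V segments pooled. They were not smaller than those of most segments taken singly, a ranking given here for pooled libraries only. Among 28 other segments with at least 20 extravascular clonotypes over all libraries, 7 had more sequences per clonotype than IGHV3-6 (2.24) and 21 had fewer, with a median of 1.43. The 7 were IGHV3-3 (8.82), IGHV3-1 (7.10), IGHV12-3 (6.94), IGHV3-8 (6.12), IGHV3-5 (5.48), IGHV11-2 (4.43) and IGHV1-58 (2.98), while IGHV1S22 had 1.19 and IGHV5-17 had 1.16. Among 23 such segments intravascularly, 9 had more than IGHV3-6 (1.10) and 14 had fewer. IGHV3-6 was chosen by its pooled number of sequences, which rises with clonotype size. Its place above most segments was thus partly set by that choice. These values are a description with no test. They pool libraries that differ in segment shares and in mean clonotype size, from 1.20 to 6.65 sequences for the other V segments. IGHV3-3 made up 22.8% of the sequences of PBS extravascular library 1. A single clonotype of PBS mouse 2 held 125 of the 735 extravascular IGHV3-6 sequences. The tests that follow are against the pool, in which the large clonotypes of a few segments weigh most. Intravascularly IGHV3-6 clonotypes held 1.09 ± 0.113 sequences against 1.597 ± 0.456 and were the smaller in 11 of 11 mice (exact signed-rank p = 0.000977, unadjusted). Extravascularly they held 2.24 ± 0.701 sequences against 3.69 ± 1.42, a difference of -1.45 ± 1.31, and were the smaller in 10 of 11 mice (exact signed-rank p = 0.00684, adjusted p = 0.0254). The exception was UPEC mouse 1, with 2.00 against 1.20 over 3 IGHV3-6 clonotypes. After the merging of 1-nucleotide variants the difference was -0.373 (exact signed-rank p = 0.0420, unadjusted). With the clonotypes of both libraries of a mouse pooled, IGHV3-6 held 1.53 ± 0.423 sequences per clonotype, IGHV3-1 held 3.69 ± 1.86 and IGHV3-8 held 3.78 ± 1.21. The difference was -2.16 from IGHV3-1, with 10 of 11 mice below 0 (exact signed-rank test, adjusted p = 0.0103 over 14 comparisons), and -2.25 from IGHV3-8, with 11 of 11 below 0 (adjusted p = 0.00456).

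**Figure D2:**
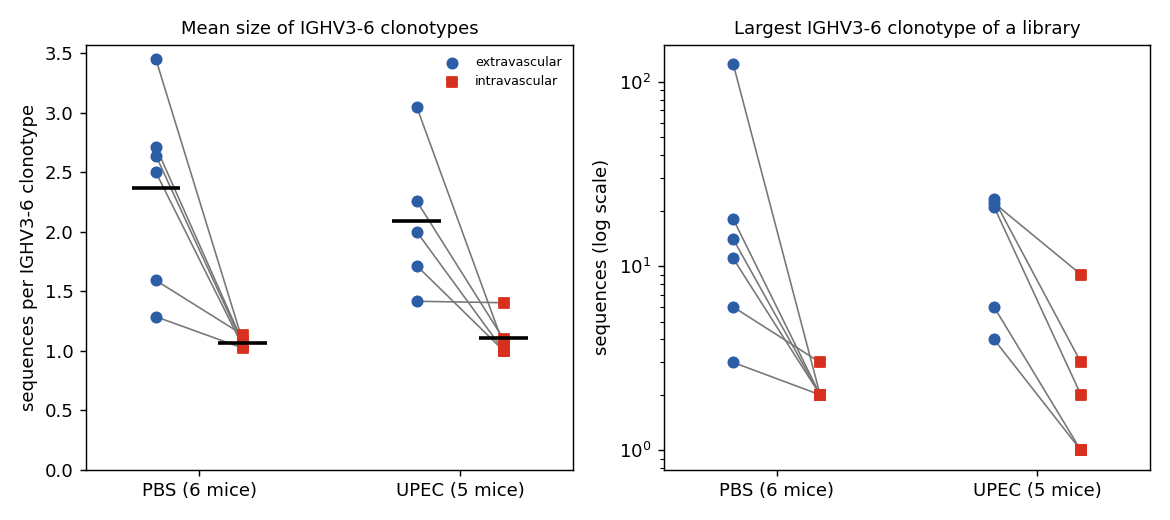
Mean number of sequences per IGHV3-6 clonotype (left) and number of sequences in the largest IGHV3-6 clonotype (right, log scale) of each library. Circles are extravascular and squares intravascular libraries, lines join the libraries of a mouse and bars on the left are group means; extravascular means run from 1.29 to 3.45 and intravascular means from 1.00 to 1.403.

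Of the 815 IGHV3-6 clonotypes 700 were a single sequence, 105 held 2 to 9 and 10 held 10 or more. Single sequences made up 85.9% of IGHV3-6 clonotypes and 82.7% of those of all other V segments. All 10 of the largest lay in extravascular libraries, which held 328 of the clonotypes. The intravascular libraries held 0 such clonotypes among 487, which would allow a share of up to 0.616% if clonotypes were independent. The largest there held 9 sequences, in UPEC mouse 4. A cut at 10 sequences also depends on depth, which was 11686 sequences extravascularly and 5492 intravascularly. The same split was not counted for the other V segments, whose clonotypes were also larger extravascularly. It is thus not shown to be particular to IGHV3-6. The 10 largest clonotypes came from 7 mice, and their CDR3s ran from 5 to 15 amino acids. The junctions of the 5 with the most sequences are shown with the inserted nucleotides, those assigned to neither V, D nor J, in capitals.

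PBS mouse 2, 125 sequences: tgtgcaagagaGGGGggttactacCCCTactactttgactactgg
UPEC mouse 4, 30 sequences: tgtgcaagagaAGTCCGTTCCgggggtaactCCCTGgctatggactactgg
UPEC mouse 3, 23 sequences: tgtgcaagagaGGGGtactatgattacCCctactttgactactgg
UPEC mouse 2, 21 sequences: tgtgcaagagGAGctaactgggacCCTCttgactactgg
PBS mouse 3, 18 sequences: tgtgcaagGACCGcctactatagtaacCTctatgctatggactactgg

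The first joined IGHD2-3 and IGHJ2 with 8 inserted nucleotides and was carried by 973 reads. It made up 60.4% of the IGHV3-6 sequences and 8.78% of all sequences of its library, whose IGHV3-6 share of 14.5% was the highest of the series and was 6.31% without it. The second joined IGHD1-1 and IGHJ4 with 15 inserted nucleotides, and 22 of its sequences were extravascular and 8 intravascular. The third, with IGHD2-4 and IGHJ2, began with the same 4 inserted nucleotides as the first. The fourth joined IGHD4-1 and IGHJ2, and the fifth IGHD2-5 and IGHJ4. The sixth, with 14 sequences in PBS mouse 5, is shown because it had 0 inserted nucleotides and a CDR3 of 6 amino acids.

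PBS mouse 5, 14 sequences: tgtgcaagacaacttgactactgg

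Most sequences of the large clonotypes had 1 mismatch to the germline V region, while the most-read sequence of each had 0. In the clonotype of 125 sequences the most-read sequence had 588 reads and 0 mismatches to the germline V region, and the others had a median of 2 reads. The most-read sequence had 0 mismatches in each of the 10 largest clonotypes. In these 10 clonotypes 17.4% of 258 sequences had 0 mismatches and 81.0% had 1. Among clonotypes of a single sequence 96.8% of 698 had 0. Over all IGHV3-6 sequences with a value, 861 of 1221, or 70.5%, had 0 mismatches, 334 had 1, 6 had 2 and 20 had 3 or more, up to 18. The median sequence had 3 reads in single-sequence clonotypes and 2 in the 10 largest, and the part of sequencing error in clonotype size was not tested beyond the merging given above. That merging removed 204 IGHV3-6 sequences, fewer than the 334 with 1 mismatch, so sequences with 1 mismatch remained after it.

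Judged by the most-read sequence of each clonotype, V mismatches were rare in both compartments. The most-read sequence had 0 mismatches in 309 of 327 extravascular clonotypes, or 94.5%, and in 476 of 486 intravascular ones, or 97.9%. The mean V mismatch frequency per library ranged from 0 to 0.501% extravascularly and from 0 to 0.0606% intravascularly. The means were 0.125% and 0.0216%, and the difference of 0.104 ± 0.163 points did not pass its test (higher in 7 of 11 mice; exact signed-rank p = 0.175, adjusted p = 0.284). With each sequence counted once the difference was 0.256 points (exact signed-rank p = 0.00195, unadjusted), which then includes the sequences with 1 mismatch in the large clonotypes. The substitution in the most clonotypes was G217T, in 13 sequences of 12 clonotypes and 10 libraries, followed by A211C in 11 sequences of 11 clonotypes.

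IGHV3-6 clonotypes were found in both libraries of a single mouse. This was UPEC mouse 4, which held 7, or 10.8% of its 65 extravascular and 11.3% of its 62 intravascular IGHV3-6 clonotypes, beside 8.99% and 7.88% over all its clonotypes. The other 10 mice held 0, with 3 to 60 extravascular IGHV3-6 clonotypes each, beside 0 to 4.48% of all their extravascular clonotypes. The libraries of UPEC mouse 4 also stood apart over all V segments, with 32 clonotypes in common against 0 to 9 in the other mice, and 34 identical V-D-J sequences against 0 to 10. Whether the libraries of this mouse exchanged cells or molecules was not tested, and without it no IGHV3-6 clonotype was shared between compartments. Of 807 IGHV3-6 clonotypes, each counted once over all libraries, 1 occurred in 2 mice. How many clonotypes of the other V segments did so was not counted, so this count is a description. The clonotype lay in the extravascular library of UPEC mouse 4 and the intravascular library of UPEC mouse 3. It is shown because its CDR3 of 5 amino acids has no assigned D segment and 3 nucleotides, in capitals, between V and J.

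UPEC mice 3 and 4, 2 sequences: tgtgcaagagaGGGctactgg

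In the intravascular compartment the CDR3 of IGHV3-6 clonotypes was shorter than that of the other V segments pooled. Over all libraries its length had a median of 11 amino acids (interquartile range 10 to 13, range 4 to 19) against 12 for the other V segments (11 to 14). A CDR3 of 8 or fewer amino acids was found in 10.9% of IGHV3-6 and in 7.53% of other clonotypes. By intravascular library the mean was 11.98, 11.46, 11.56, 11.54, 11.78 and 11.33 in PBS mice 1 to 6 and 11.62, 11.05, 11.01, 10.97 and 10.89 in UPEC mice 1 to 5. The other V segments of these libraries had means of 11.8 to 12.4. IGHV3-6 was the shorter in 10 of 11 mice, PBS mouse 1 being the exception, and the mean difference was -0.751 ± 0.460 amino acids (11.4 against 12.1; exact signed-rank p = 0.00195, adjusted p = 0.0127). It was -0.625 against the other IGHV3 segments alone and -0.561 against other V segments weighted to the J usage of IGHV3-6. Among sequences with at least 200 V nucleotides it was -0.352 (exact signed-rank p = 0.0186, unadjusted), less than the value over all sequences by more than a factor of 1.5. Intravascular means of the relatives, with no test, were 11.4 amino acids in IGHV3-4, 11.7 in IGHV3-1 and 11.8 in IGHV3-5. They were 12.3 in IGHV3-3 and 12.3 in IGHV3-8.

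Extravascularly this difference did not pass its test. The mean was 11.8 ± 0.772 amino acids for IGHV3-6 and 11.9 ± 0.323 for the other V segments (difference -0.136 ± 1.00, n = 11; exact signed-rank p = 0.520, adjusted p = 0.665). By mouse it ran from 2.00 in PBS mouse 1, over 7 clonotypes, to -1.71 in UPEC mouse 2. Without PBS mouse 1 the mean difference was -0.350 (exact signed-rank p = 0.193), and without the pairs of PBS mouse 1 and UPEC mouse 1 it was -0.370. The change of the gap between compartments was 0.615 ± 0.724 amino acids (positive in 8 of 11 mice; exact signed-rank p = 0.0322, unadjusted). The widest change was in PBS mouse 1, with gaps of 2.00 extravascularly, over 7 clonotypes, and 0.153 intravascularly. Whether the call holds without that mouse was not tested. The direct comparison of IGHV3-6 clonotypes between compartments gave 0.400 ± 0.644 amino acids more extravascularly (7 of 11 mice; exact signed-rank p = 0.0537, adjusted p = 0.146), and 0.0522 with each sequence counted once (exact signed-rank p = 0.966).

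**Figure D3:**
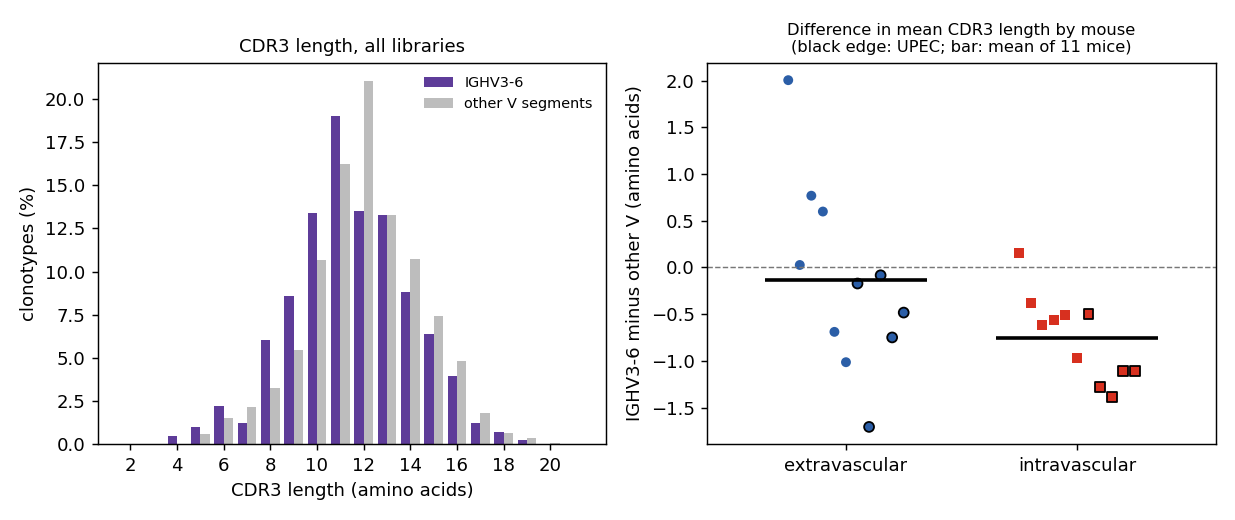
Left: percent of clonotypes at each CDR3 length in amino acids, IGHV3-6 (815 clonotypes) beside all other V segments, over all libraries. Right: mean CDR3 length of IGHV3-6 minus that of the other V segments of the same library, a point for each mouse, black edges for UPEC; 10 of 11 intravascular points lie below 0, with a mean of -0.751.

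Inserted nucleotides were fewer in intravascular IGHV3-6 clonotypes than in those of other V segments. Intravascular IGHV3-6 clonotypes with a D segment had 5.76 ± 0.282 inserted nucleotides and those of other V segments 6.47 ± 0.315, a difference of -0.709 ± 0.509, with fewer in 10 of 11 mice (exact signed-rank p = 0.00195, adjusted p = 0.0127). Library means ran from 5.24 to 6.11 for IGHV3-6 and from 6.02 to 7.01 for the others. Against the other IGHV3 segments alone the difference was -0.664. It was -0.218 among sequences with at least 200 V nucleotides (exact signed-rank p = 0.175), so that the call was lost there. It was also lost with each sequence counted once (-0.299, exact signed-rank p = 0.123). Extravascular IGHV3-6 clonotypes had 6.68 ± 1.66 inserted nucleotides against 6.23 ± 0.692 (exact signed-rank p = 0.765, adjusted p = 0.765, n = 11). The libraries of PBS mouse 1 and UPEC mouse 1, with 9 and 10.7 over 7 and 3 clonotypes, gave the highest means, and without both pairs the difference was -0.479 (exact signed-rank p = 0.0977). With each sequence counted once, and large clonotypes thus weighing more, IGHV3-6 had 1.93 more extravascularly (exact signed-rank p = 0.00977, unadjusted). Between compartments the IGHV3-6 difference was 0.921 ± 1.66 nucleotides (8 of 11 mice; exact signed-rank p = 0.0674, adjusted p = 0.146). It was 0.511 without UPEC mouse 1, whose own difference was 5.02 over 3 extravascular clonotypes, and 0.240 without both mouse 1 pairs.

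By source, the J segment gave the largest of the 5 intravascular differences. IGHV3-6 junctions held 14.8 nucleotides of J against 16.3 in other V segments, a difference of -1.51 ± 1.08 (10 of 11 mice; exact signed-rank p = 0.00195, unadjusted, as are the following 3). The D-J joint had 2.55 inserted nucleotides against 2.85 (exact p = 0.0186). The V-D joint had 3.21 against 3.62 (exact p = 0.0537). The V segment contributed 9.71 nucleotides against 9.34 (exact p = 0.00977). Against the other IGHV3 segments the J difference was -1.34 (10 of 11 mice; exact p = 0.00293). Junctions were not matched for J segment here, so these values do not measure the trimming of J.

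J segments differ in the number of codons they give the CDR3, and IGHV3-6 was joined to them in other proportions than the other V segments. Shares were averaged over the libraries of a mouse. IGHJ1, the longest in the CDR3 together with IGHJ4, was used by 16.3 ± 7.69% of IGHV3-6 clonotypes and by 26.3 ± 4.26% of others, and was lower in 11 of 11 mice, by 2.20 to 22.5 points (mean -10.0; exact signed-rank p = 0.000977, adjusted p = 0.0127). IGHJ2 was used by 39.0 ± 10.7% against 30.3 ± 3.25%, higher in 9 of 11 mice (8.73 points; exact signed-rank p = 0.00488, adjusted p = 0.0212). IGHJ3 was used by 24.8 ± 4.95% against 18.5 ± 3.64%, higher in 9 of 11 mice (6.22 points; exact signed-rank p = 0.00488, adjusted p = 0.0212). With each sequence counted once the IGHJ3 difference was 3.21 points and the call was lost (exact signed-rank p = 0.278). IGHJ4 was used by 20.0 ± 7.45% against 24.9 ± 3.30%, and its difference of -4.94 points did not pass after adjustment (exact signed-rank p = 0.0420, adjusted p = 0.136).

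**Figure D4:**
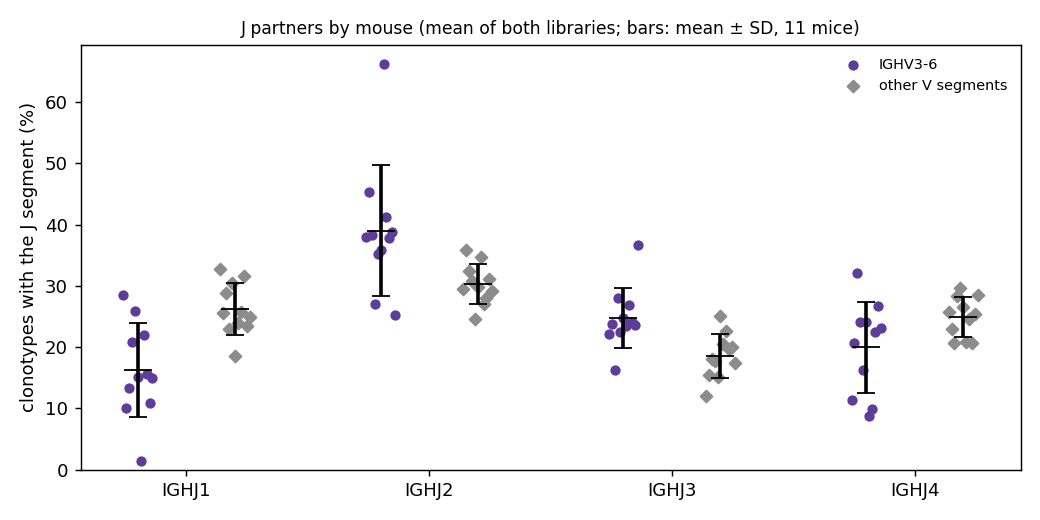
Percent of clonotypes with each J segment for IGHV3-6 (circles) and for all other V segments (diamonds), a point for each of 11 mice as the mean of its libraries, with the mean and SD. IGHJ1 points of IGHV3-6 run from 1.47% to 28.4% and those of the other V segments from 18.5% to 32.7%.

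The set of V segments compared with decided part of these calls. Without IGHV11-2 and IGHV12-3 among the other segments, the IGHJ1 difference was -3.85 points (exact signed-rank p = 0.147) and the IGHJ2 difference 6.17 points (exact signed-rank p = 0.0537). The IGHJ4 difference was then -7.88 points (exact signed-rank p = 0.0186, unadjusted). Against the other IGHV3 segments alone, IGHJ1 gave -7.63 points (exact p = 0.0674) and IGHJ2 6.44 points (exact p = 0.413). With libraries of a mouse pooled, IGHJ3 was used by 26.4% of IGHV3-6, 26.9% of IGHV3-1 and 8.76% of IGHV3-8 clonotypes. The difference of 17.6 points from IGHV3-8 held in 11 of 11 mice (exact signed-rank test, adjusted p = 0.00456 over 14 comparisons). IGHJ1 was used by 15.1% of IGHV3-6 and 29.3% of IGHV3-8 clonotypes, lower in 11 of 11 mice (-14.2 points; adjusted p = 0.00456). The CDR3 was 0.692 amino acids and the insertions 0.765 nucleotides below those of IGHV3-8 in 9 of 11 mice (exact signed-rank test, adjusted p = 0.0319 for each). Against IGHV3-1 no difference in J, CDR3 length or insertions passed (smallest adjusted p = 0.135, for IGHJ2, 9.60 ± 14.5 points; the CDR3 difference was -0.193 ± 0.621 amino acids). The smaller segments of the family gave IGHJ3 in 3.91% of 128 IGHV3-3, 8.70% of 23 IGHV3-4 and 16.7% of 120 IGHV3-5 clonotypes, with no test.

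No D family passed its test. IGHD1 segments were used by 34.5 ± 8.06% of IGHV3-6 clonotypes with a D segment and 37.3 ± 3.16% of others (exact signed-rank p = 0.240, n = 11). IGHD2 segments were used by 42.2 ± 8.24% and 42.7 ± 2.85% (exact p = 0.7002, n = 11). IGHD3 segments were used by 10.6 ± 4.57% and 9.06 ± 2.40% (exact p = 0.765, n = 11). IGHD4-1 was the sole member of its family here and was used by 10.2 ± 3.96% and 8.63 ± 1.76% (exact p = 0.175, n = 11). The most frequent D genes were IGHD1-1 with 229 of 815 clonotypes, IGHD2-3 with 103, IGHD2-4 with 92 and IGHD4-1 with 73. Without UPEC mouse 1, whose extravascular library held 3 IGHV3-6 clonotypes, the IGHD3 difference went from 1.56 to 0.336 points and the IGHD1 difference from -2.80 to -1.42. No D segment was assigned in 33 clonotypes, 4.05% against 2.48% of those of other V segments.

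The constant regions were nearly all IgM. Each identifier held 9 read numbers for the isotypes, of which the names were cut off after the first, and the fields were read in alphabetical order, which could not be checked against a full header. On that reading 1208 of 1271 sequences carried Ighm reads, 58 carried Ighd reads, 2 Igha, 1 Ighg2b and 2 Ighg3. The 4 fields read as Ighe, Ighg1, Ighg2a and Ighg2c had 0 of 1271, which would allow a share of up to 0.236% each if sequences were independent. Those of a clonotype are not, and over 815 clonotypes the limit is 0.368%. Sequences without Ighm numbered 26 of 735 extravascularly and 37 of 536 intravascularly, and 23 and 35 of these were Ighd. As 0 sequences carried both Ighd and Ighm reads, a sequence without Ighm does not show a cell without IgM. The Ighm share over all V segments was not counted. Over all V segments the mean share of sequences with Ighd reads was 7.76 ± 8.12% extravascularly and 15.4 ± 4.62% intravascularly (exact signed-rank p = 0.0420, unadjusted, n = 11). For IGHV3-6 it was 2.90 ± 3.42% and 7.30 ± 4.15% (exact signed-rank p = 0.0537, unadjusted, n = 11). By library the share of IGHV3-6 sequences without Ighm ranged from 0 to 8.57% extravascularly and from 1.75% to 14.7% intravascularly. The mean shares were 3.51 ± 3.22% and 7.87 ± 4.48%, lower extravascularly in 8 of 11 mice by 4.36 ± 6.19 points (exact signed-rank p = 0.0674, adjusted p = 0.146). Weighted by reads, the difference was -3.95 points (exact signed-rank p = 0.0322, unadjusted).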

How the data were processed

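Per the study's methods, Igh transcripts of sorted kidney B cells were amplified and sequenced on a MiSeq with paired reads, the authors merged pairs and took barcode consensus sequences, assigned constant regions, dropped sequences seen in 1 read and ran IMGT/V-QUEST on what was left. The deposited tables, 1 for each of 22 libraries, hold 1 sequence per line with its segment names, junction and, in its identifier, counts of reads in 9 isotype fields. Sequences of single reads are thus not seen, and the precision of a share is set by the depth, from 344 to 938 sequences in intravascular and up to 2134 in extravascular libraries (intervals cover counting error only). Identical sequences are not corrected for PCR beyond the authors' barcodes.

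Clonotypes were built with Python 3.11.15 and pandas 2.3.3 from the junction nucleotides, V and J name, and described by their most-read sequence. Inserted nucleotides are those between the V, D and J positions and include palindromic ones. Mismatches were counted against the V exon in GRCm38 (RefSeq sequence, GENCODE annotation) over at least 100 nucleotides. Compartments were compared within mice by the exact signed-rank test and treatments by the exact Mann-Whitney test (462 assignments, smallest p 0.00433), all two-sided and adjusted (Benjamini-Hochberg) over 26 tests at 0.05. Log2 shares of V segments with at least 10 sequences in at least 3 libraries were fitted with limma 3.58.1 (R 4.3.3, prior 0.5 sequences, mouse as a block).

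The pairing comes from the labels, which give both libraries of a number and treatment to a mouse. The paired libraries' deviations from their group means over 18 V segments correlated between -0.413 and 0.544 (median -0.160). Named segments were IGHV3-6, its neighbours in rank, its IGHV3 relatives and the 3 most alike in share, with IGHV11-2 and IGHV1-58 added after their values were seen; the named clonotypes were the largest and the most shared. The members and lists were chosen with earlier results of these data known. Alternatives were other weights, clonotype definitions, comparison segments, depths and tests, and each mouse left out in turn.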

Additional observations from a re-analysis of the deposited data

Results flagged for a closer look

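Within the 4 groups of libraries, 60 sets of IGHV3-6 values were searched for a library far from the others (Dixon's criterion), which chance meets in about 1 of 20, or about 3 of these 60. It was met in 9. Among shares, PBS intravascular mouse 6 had 5.56% IGHV3-6 sequences against 10.3% to 11.4% in the other PBS mice. In inserted nucleotides, PBS extravascular mouse 1 had 9 against 5.40 to 6.75, and UPEC extravascular mouse 1 had 10.7 against 5.46 to 6.15, over 7 and 3 clonotypes. The latter library also had 33.3% IGHD3 partners against 0 to 8.06%, which is 1 clonotype of 3. In sequences per clonotype, UPEC intravascular mouse 4 had 1.403 against 1.00 to 1.10, and this is the mouse whose libraries share 7 IGHV3-6 clonotypes. In CDR3 length, UPEC intravascular mouse 1 had 11.6 amino acids against 10.9 to 11.05. In J partners, PBS intravascular mouse 5 had 27.8% IGHJ1 against 10.3% to 16.7%, and UPEC intravascular mouse 2 had 4.76% IGHJ4 against 17.6% to 22.6%. In V mismatches, PBS intravascular mouse 5 had 0.0522% against 0 to 0.0126%.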

How the results depend on the processing

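The larger IGHV3-6 clonotypes of the extravascular compartment, their smaller size than that of the other V segments pooled there, and the shorter intravascular CDR3 kept their direction and an unadjusted p under 0.05 in every alternative run for them. The merging of 1-nucleotide variants for clonotype size, the weighting to J usage, the minimum of 200 V nucleotides, the removal of IGHV11-2 and IGHV12-3 and that of the mouse 1 pairs, and the comparisons with IGHV3-1 and IGHV3-8, of junction make-up, of the gap between compartments, of Ighd over all V segments and of clonotype size in other V segments, singly or pooled, or intravascularly, were chosen after seeing the data. The limits are depth, with as few as 3 IGHV3-6 clonotypes in a library, the removal of sequences of a single read, and 5 or 6 mice a group.

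Weighted by reads, the extravascular minus intravascular share was 0.215 points in PBS, 0.782 in UPEC and 0.473 in all mice, the intravascular UPEC minus PBS difference was 0.433, the change with UPEC 0.566, and the share without Ighm gave -3.95. Without the largest clonotype of each library the share differed by -5.70 points in PBS and -4.65 in all mice. The IGHJ4 difference was -4.32 points without ambiguous V names and -4.77 with clonotypes by amino acids. With each sequence counted once, inserted nucleotides differed from those of other V segments by -0.299 intravascularly (call lost) and 1.93 extravascularly (exact signed-rank p = 0.00977, unadjusted), IGHJ3 by 3.21 (call lost), IGHJ4 by -2.45 and IGHD1 by 0.1504 points, and between compartments CDR3 length differed by 0.0522 amino acids, insertions by 0.595 and V mismatch by 0.256 points. Under the same counting IGHJ2 differed by 14.2 points, IGHD2 by -5.41 and IGHD4 by 3.59. Against the other IGHV3 segments alone, extravascular CDR3 length differed by 0.000174 and insertions by -0.0444, IGHJ1 by -7.63, IGHJ2 by 6.44, IGHJ4 by -7.90, IGHD1 by 1.17 and IGHD3 by -0.693. Without the pairing of libraries by mouse as a replicate block, the share difference of all mice stayed -3.08 points (exact or permutation p = 0.0400), IGHJ4 -4.94 (p = 0.116) and the share without Ighm -4.36 (p = 0.0349); the block changed no other call. A permutation test of the mean gave p = 0.0703 for IGHJ4 (-4.94) and p = 0.0430 for the share without Ighm (-4.36). Values were -3.85 for IGHJ1, 6.17 for IGHJ2, -7.88 for IGHJ4, -4.79 for IGHD1 and 2.05 for IGHD2 without IGHV11-2 and IGHV12-3. With at least 200 V nucleotides the share of all mice differed by -4.54 points, with an unadjusted signed-rank p under 0.05. Extravascular CDR3 length then differed by 0.111, intravascular insertions by -0.218 and IGHJ4 by -3.39. Without the PBS mouse 1 and UPEC mouse 1 pairs, the share of clonotypes differed between compartments by -1.91 points. Extravascular CDR3 length then differed from that of other V segments by -0.370 amino acids, extravascular insertions by -0.479 and IGHJ4 by -3.11. The causes were not tested.

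In the limma fits the number of V segments called in PBS mice was 6, but 0 without a filter, 3 with median centring and 0 over reads; in all mice it was 6, but 3 with centring and 1 over reads. The log2 fold change of IGHV3-6 between compartments was -0.06 in PBS and -0.12 in all mice with centring and -0.45 and -0.21 over reads, and ranged from -1.54 to -0.75 and from -0.99 to -0.60 with a mouse left out. It was -0.0503 for extravascular UPEC over PBS with centring and 0.0862 for intravascular UPEC over PBS over reads.

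With each mouse left out in turn, the number of V segments called ranged from 0 to 5 in PBS mice (0 without any of mice 1 to 5), from 2 to 8 in all mice (2 without PBS mouse 4) and from 0 to 1 for extravascular UPEC against PBS (1 without PBS mouse 6 or UPEC mouse 3). The log2 fold change of intravascular IGHV3-6 ranged from -0.20 to 0.0912, at 0.00307 without PBS mouse 3 and 0.0912 without UPEC mouse 2. The intravascular UPEC minus PBS share ranged from -1.30 to 0.524 points, positive without PBS mouse 3 (0.0207) or UPEC mouse 2. The UPEC compartment difference ranged from -3.15 (without mouse 4) to -0.554 points (without mouse 3), the extravascular UPEC minus PBS share from 0.6998 (without UPEC mouse 4) to 3.61 (without PBS mouse 2), the change with UPEC from 0.910 to 3.78 (without the same mice) and the extravascular UPEC minus PBS share of clonotypes from 0.780 to 4.97. The share of clonotypes between compartments ranged from -4.36 to -2.66 points, with an unadjusted p under 0.05 without PBS mouse 2 or UPEC mouse 2, 4 or 5. CDR3 length between compartments ranged from 0.295 to 0.490 amino acids, under 0.05 without PBS mouse 5 or 6 or UPEC mouse 1 or 2. Its extravascular difference from other V segments ranged from -0.350 (without PBS mouse 1) to 0.0208, positive without UPEC mouse 2. Insertions between compartments ranged from 0.511 to 1.07, under 0.05 without PBS mouse 6 or UPEC mouse 3 or 5. IGHJ4 ranged from -6.58 to -3.96 points, above 0.05 without PBS mouse 1, 2, 4, 5 or 6 or UPEC mouse 1, 2 or 5. IGHD1 ranged from -4.52 (without PBS mouse 4) to -1.42 points and IGHD3 from 0.336 to 2.03, with the smaller difference of each without UPEC mouse 1. IGHD2 ranged from -1.46 to 1.33 (1.01 without PBS mouse 4, 1.33 without UPEC mouse 2), and IGHD4 from 1.00 to 2.16, under 0.05 without UPEC mouse 3. The share without Ighm ranged from -5.37 to -3.32 points, under 0.05 without PBS mouse 3 or UPEC mouse 3 or 4.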
